A study of Mus musculus with 12 samples.

Results

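The transcripts of 10 circadian clock genes were examined in tumourspheres of mouse spindloid mammary tumour cells treated with a Met inhibitor, an FGFR inhibitor or both. The genes were chosen by name: the repressors Per1, Per2, Per3, Cry1 and Cry2, the nuclear receptors Nr1d1 and Nr1d2, the PAR bZIP transcription factors Dbp and Tef, and the basic helix-loop-helix repressor Bhlhe40. They are 10 of the 55573 genes in the count table, and all 10 were among the 13836 genes that passed the filter on low counts.

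The spheres were grown from 3 spindloid lines, A1005, A1129 and A1471, each from an independent tumour. All 12 libraries share the genotype MMTV-Metmt;Trp53fl/+;Cre, in which the MMTV promoter, active in mammary epithelium, drives a mutant Met receptor, and Trp53 is floxed on 1 allele and exposed to Cre, whose promoter the labels do not name. Spheres of each line received DMSO (the vehicle), Crizotinib (a Met kinase inhibitor), PD173074 (an FGFR kinase inhibitor) or the 2 inhibitors together for 24 h (each at 1 µM per the study's methods), which gave 1 library per line and treatment and n = 3 lines per treatment. The question was what each inhibitor did alone and what the pair did together. The sphere medium held no serum but did hold hydrocortisone, a glucocorticoid, and growth factors including bFGF, in all 4 treatments. No library came from cells without the transgene or without Cre.

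The circadian clock is a transcriptional feedback loop that runs in most cells of the body. The activators CLOCK and ARNTL (BMAL1) bind E-box sequences and switch on the Per and Cry genes, whose proteins return to the nucleus and repress the activators. The same activators drive Nr1d1 and Nr1d2, which encode REV-ERBα and REV-ERBβ, repressors of Arntl, and Dbp and Tef, whose proteins bind D-box sequences and carry the rhythm to output genes. Bhlhe40 (DEC1) competes for E-boxes and also responds to hypoxia and growth factor signals. Per1 is in addition a direct target of the glucocorticoid receptor and of cAMP signalling. Cells in culture lose synchrony with time unless a stimulus such as serum or a glucocorticoid resets them. The time of day of collection is not given in the sources used here and there was 1 time point, so a change in the level of a rhythmic transcript and a change in its phase cannot be told apart.

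Promoter sequences are shown for the members whose DMSO and combination values did not overlap (Per1, Tef, Cry1 and Nr1d1) and for Per3, which held a different motif. They are RefSeq windows of 250 bases before to 50 bases after an annotated start in build GRCm38.p6 (mm10), written 5′ to 3′ on the gene's strand, with clock motifs in capitals: the E-box CACGTG, the E-prime box CACGTT, which reads AACGTG on the other strand, and the D-box TTATGTAA.
Per1, chr11:69098699-69098998, plus strand: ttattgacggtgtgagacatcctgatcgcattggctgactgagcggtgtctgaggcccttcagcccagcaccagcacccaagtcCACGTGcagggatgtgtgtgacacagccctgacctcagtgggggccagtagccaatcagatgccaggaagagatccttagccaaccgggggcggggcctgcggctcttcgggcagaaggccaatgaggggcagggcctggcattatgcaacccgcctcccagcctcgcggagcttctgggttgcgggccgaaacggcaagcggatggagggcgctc
Tef, chr15:81802423-81802722, plus strand: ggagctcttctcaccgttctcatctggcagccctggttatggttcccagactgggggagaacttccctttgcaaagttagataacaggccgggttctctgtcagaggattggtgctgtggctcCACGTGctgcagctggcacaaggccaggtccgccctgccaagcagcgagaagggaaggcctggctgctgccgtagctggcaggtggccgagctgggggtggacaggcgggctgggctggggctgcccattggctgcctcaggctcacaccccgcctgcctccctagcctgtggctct
Tef, chr15:81811164-81811463, plus strand: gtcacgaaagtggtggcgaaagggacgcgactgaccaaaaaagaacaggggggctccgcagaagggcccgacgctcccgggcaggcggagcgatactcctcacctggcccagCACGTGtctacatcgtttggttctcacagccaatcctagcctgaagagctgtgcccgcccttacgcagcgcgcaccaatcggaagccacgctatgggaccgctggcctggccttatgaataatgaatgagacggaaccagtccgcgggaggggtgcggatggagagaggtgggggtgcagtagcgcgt
Cry1, chr10:85185005-85185304, minus strand: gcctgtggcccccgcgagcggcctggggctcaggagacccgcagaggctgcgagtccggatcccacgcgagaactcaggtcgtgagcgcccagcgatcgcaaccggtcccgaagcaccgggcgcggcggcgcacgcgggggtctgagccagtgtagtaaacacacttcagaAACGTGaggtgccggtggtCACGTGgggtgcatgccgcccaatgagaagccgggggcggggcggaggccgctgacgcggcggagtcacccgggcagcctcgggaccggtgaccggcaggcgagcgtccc
Nr1d1, chr11:98775328-98775627, minus strand: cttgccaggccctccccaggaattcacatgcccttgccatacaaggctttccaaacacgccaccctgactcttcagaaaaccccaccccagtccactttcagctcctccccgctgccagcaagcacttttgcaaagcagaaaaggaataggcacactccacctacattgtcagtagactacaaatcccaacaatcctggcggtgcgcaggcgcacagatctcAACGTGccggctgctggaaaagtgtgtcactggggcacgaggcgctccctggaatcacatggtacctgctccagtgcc
Per3, chr4:151044616-151044915, minus strand: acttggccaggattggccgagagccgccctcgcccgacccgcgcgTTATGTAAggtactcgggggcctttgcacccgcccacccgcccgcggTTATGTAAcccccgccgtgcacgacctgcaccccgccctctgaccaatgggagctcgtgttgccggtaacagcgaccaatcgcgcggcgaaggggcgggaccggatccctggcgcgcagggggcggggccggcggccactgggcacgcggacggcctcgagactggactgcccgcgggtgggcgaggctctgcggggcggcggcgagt

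The table of windows held 8 of the 10 members in 10 windows. Both strands were searched for these motifs and for a second form of the D-box (TTACGTAA), the cAMP response element (TGACGTCA) and the core of the ROR element (TAGGTCA), 6 in all. An E-box was found in 4 of the 10 windows, against 7.15% of all 32851 windows of that length. Its first base lay at -166 in the first Per1 window, at -60 in Cry1 and at -127 and -138 in the windows of Tef, counted from the start site. Cry1 also held an E-prime box at -79. Nr1d1 held an E-prime box at -28 and Cry2 had 1 at -166, against 4.68% of all windows. Per3 held 2 D-boxes, at -205 and -158, a motif present in 0.938% of all windows. The windows of Dbp and Nr1d2 and the second Per1 window held none of these letters, nor did any member window hold the second D-box form, the cAMP response element or the ROR element core, which stood in 0.119%, 1.79% and 2.61% of all windows. A match describes the letters only and is not evidence of binding.

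The libraries held 13031492 to 17750476 counts each, and no 2 of the 66 pairs of libraries were closer than a chi-square of 4.54 per degree of freedom over genes. Single member counts ran from 28 reads (Dbp in A1471 with DMSO) to 6065 reads (Bhlhe40 in A1005 with PD173074). Levels were compared with the labelled cell type through marker genes: the 7 mesenchymal markers summed to 2452 to 8475 TMM-normalized CPM (reads of a gene relative to the library's total) and Vim alone was at 1900 to 3199 CPM, while the 7 epithelial markers summed to 7.31 to 52.2 CPM with Cdh1, Krt5, Krt14 and Cldn7 under 1 CPM in every group. The epithelial markers Krt8, at 1.12 to 33.9 CPM, and Krt18, at 3.99 to 49.3 CPM, were read in every library, and Epcam reached 2.08 CPM. The mesenchymal markers Snai2 and Cdh2 were under 1 CPM with DMSO. Endothelial markers summed to at most 0.751 CPM and adipocyte markers to at most 0.0715 CPM. The immune list stood apart in A1005, where its 5 genes summed to 31.3 to 41.9 CPM against 4.34 to 10.8 CPM in A1129 and 4.48 to 8.21 CPM in A1471. Of that list, Ptprc was at 13.6 to 20.5 CPM in the 4 A1005 libraries and at most 0.138 CPM in the other 8, Cd68 was read in all lines, and Adgre1 and Cd3e were under 1 CPM in every group. Met was at 2124 to 8319 CPM and Fgfr1 at 217 to 337 CPM, so both drug targets were transcribed in every library. The study describes amplification of the endogenous Met locus in this model, and the Met reads were not divided between that locus and the transgene.

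Per length of exon, Bhlhe40 was the most abundant member in the DMSO spheres, at 83.0 ± 50.9 TPM (reads per exon length, scaled to a common total; SD, n = 3). Per1 followed at 43.6 ± 3.27 TPM, Cry1 at 31.9 ± 5.05 TPM, Nr1d1 at 29.7 ± 4.65 TPM, Nr1d2 at 29.4 ± 16.3 TPM and Tef at 13.8 ± 4.78 TPM. The other 4 members were scarce: Per2 at 5.99 ± 3.55 TPM, Dbp at 3.98 ± 1.76 TPM, Cry2 at 3.87 ± 0.522 TPM and Per3 at 1.73 ± 0.371 TPM. The ranges of the 3 lines overlapped between Cry1 and Nr1d1, Nr1d1 and Nr1d2, Nr1d2 and Tef, Per2 and Dbp, and Dbp and Cry2, so the order within these neighbours lay inside the spread between lines. The spread itself was uneven, from narrow in Per1 to wide in Bhlhe40, Nr1d2 and Per2.

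The lines kept their own levels of several members across all 4 treatments. Bhlhe40 ranged over the 4 treatments from 171 to 366 CPM for A1005, from 39.5 to 69.2 CPM for A1129 and from 26.9 to 82.0 CPM for A1471. Per2 ranged from 18.4 to 22.7 CPM for A1005, from 8.74 to 15.1 CPM for A1129 and from 5.10 to 7.61 CPM for A1471. Nr1d2 was highest in A1129, at 60.0 to 91.0 CPM, against 26.4 to 36.2 CPM in A1005 and 32.1 to 43.7 CPM in A1471. For Bhlhe40, A1005 did not overlap with either other line in any treatment, and for Per2 none of the 3 lines overlapped.

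**Figure D1:**
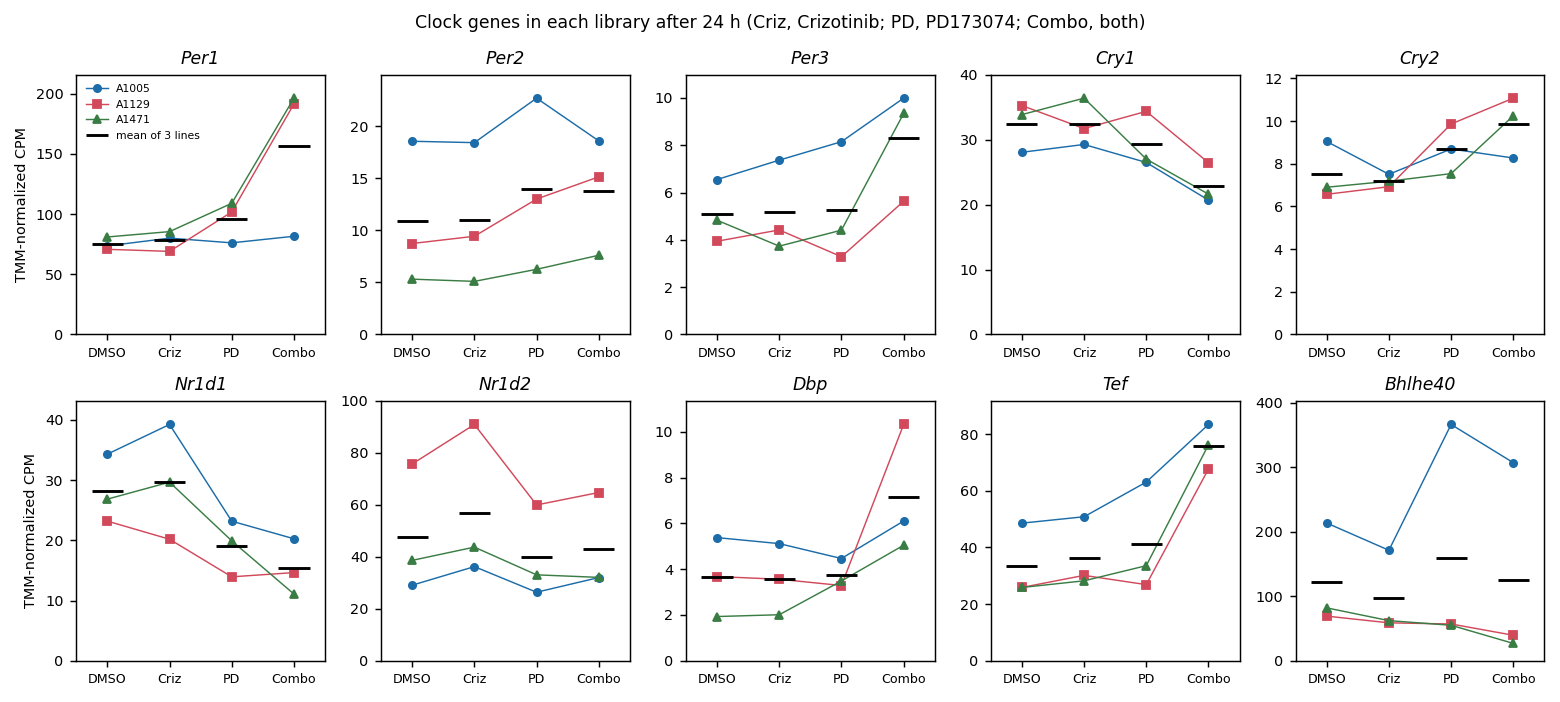
Level of each of the 10 clock genes in the 12 libraries, in TMM-normalized CPM on axes that start at 0, after 24 h of DMSO, Crizotinib (Criz), PD173074 (PD) or both (Combo). Each marker and colour is a cell line, thin lines join the libraries of a line, and black bars are means of the 3 lines. Per1 in the combination was 191 and 196 CPM in A1129 and A1471 but 81.5 CPM in A1005, and Bhlhe40 in A1005 lay above both other lines in every treatment.

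With both inhibitors together, Per1 rose over DMSO by 1.06 ± 0.29 on the log2 scale (SE, n = 3 per group, edgeR quasi-likelihood adjusted p = 0.0390). It was the only member past the threshold of 0.05 in the unpaired fit, in which 14.4% of all tested genes passed, and 4 of the 10 members had an unadjusted p under 0.05. The Per1 call was lost with unpaired limma-voom, with no filter on low counts and with only the libraries of the groups compared. When the cell line was added as a block, which compares each line with itself, 7 members passed: Per1, Per2, Per3, Dbp and Tef rose, and Cry1 and Nr1d1 fell. In that fit 54.8% of all tested genes passed (28.6% higher and 26.2% lower), so 7 of 10 is close to the share among all genes and is no result about the clock genes as a group. Without A1005, 3 members passed the unpaired fit (14.9% of all genes tested there) and 8 the fit with the block (50.3%). Without A1129 these counts were 0 (2.35%) and 3 (40.8%), and without A1471 they were 0 (0.856%) and 2 (36.8%). The median change of the 10 members was 0.37 against 0.02 for all tested genes. In bulk RNA, fewer cells of a type and less RNA per cell cannot be told apart.

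Among the Per genes, the negative limb of the loop, the largest change was in Per1 (chr11:69095217-69109960). It was at 73.5, 70.7 and 80.9 CPM in A1005, A1129 and A1471 with DMSO and at 81.5, 191 and 196 CPM with the combination. The groups did not overlap, but A1005 lay just above the highest DMSO value while the other lines were far above it: on the log2 scale A1005 changed by 0.15, A1129 by 1.44 and A1471 by 1.28. The call rested on those 2 lines. Without A1129 the adjusted p of the unpaired edgeR fit was 0.352, without A1471 it was 0.308, and without A1005 it was 0.00852 with a log2 fold change of 1.37. With the block it was 1.0 (edgeR adjusted p = 0.00423), and this call was also lost without A1129 (adjusted p = 0.0688) or without A1471 (adjusted p = 0.0864).

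Per2 (chr1:91415982-91459324) was at 18.6, 8.74 and 5.31 CPM with DMSO and at 18.6, 15.1 and 7.61 CPM with the combination in the same order of lines. Its groups overlapped because the lines started far apart, and on the log2 scale A1005 changed by 0.00, A1129 by 0.78 and A1471 by 0.51. The unpaired fit gave 0.34 ± 0.64 (edgeR adjusted p = 0.788) and the fit with the line as a block gave 0.44 ± 0.17 (adjusted p = 0.0473). That call was lost with DESeq2 and the block (adjusted p = 0.0613) and with limma-voom and the block (adjusted p = 0.0710). In the blocked edgeR fit the log2 fold change was 0.25 without A1129 (adjusted p = 0.363), 0.41 without A1471 (adjusted p = 0.192) and 0.67 without A1005 (adjusted p = 0.0227).

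Per3 (chr4:151003652-151044665), which is dispensable for the core loop, was at 6.55, 3.94 and 4.83 CPM with DMSO and at 9.99, 5.63 and 9.34 CPM with the combination. Each line was higher with the combination, by 0.60, 0.50 and 0.93 on the log2 scale, although the groups overlapped. Its log2 fold change was 0.70 ± 0.43 in the unpaired fit (edgeR adjusted p = 0.318) and 0.70 ± 0.22 with the block (adjusted p = 0.0185). With any 1 line left out, the blocked adjusted p was 0.0549 to 0.0948.

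The Cry genes encode the partners of the PER proteins, and Cry1 was the only one of the pair that passed, with the block. Cry1 (chr10:85131700-85185064) was at 28.1, 35.3 and 33.9 CPM with DMSO and at 20.7, 26.5 and 21.6 CPM with the combination, so the highest treated line lay below the lowest control line. The change within a line was -0.44, -0.41 and -0.64. The log2 fold change was -0.50 ± 0.18 without the block (edgeR adjusted p = 0.0977) and -0.50 ± 0.12 with it (adjusted p = 0.00539). The blocked call was lost without A1471 (adjusted p = 0.0554). Cry2 (chr2:92403646-92434043) was at 9.05, 6.57 and 6.90 CPM with DMSO and at 8.27, 11.1 and 10.2 CPM with the combination, and did not pass in either fit (0.39 ± 0.23, edgeR adjusted p = 0.298, and 0.40 ± 0.19, adjusted p = 0.0942, with the block).

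Of the REV-ERB genes, Nr1d1 (chr11:98767932-98775333) was at 34.3, 23.2 and 26.8 CPM with DMSO and at 20.3, 14.6 and 11.1 CPM with the combination. All 3 treated lines lay below all 3 controls, and each line dropped, by -0.76, -0.66 and -1.27 on the log2 scale. The unpaired estimate was -0.87 ± 0.32 (edgeR adjusted p = 0.101), and with the block Nr1d1 fell by 0.87 ± 0.17 (adjusted p = 0.00169). The blocked call held without each line in turn (adjusted p 0.00598 to 0.0213). Nr1d1 shares 263 of its 3077 exonic bases with Thra, a gene on the opposite strand, and the strand setting of the counting is not stated in the sources used here. Thra differed in the other direction (0.69, edgeR adjusted p = 0.00467 with the block, and 0.64, adjusted p = 0.595, without). Nr1d2 (chr14:18204054-18239127) was at 29.1, 75.7 and 38.6 CPM with DMSO and at 32.0, 64.8 and 32.1 CPM with the combination, with no call in either fit (-0.15 ± 0.50, edgeR adjusted p = 0.887, and -0.12 ± 0.10, adjusted p = 0.349, with the block).

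The PAR bZIP factors were higher with the combination in each line. Tef (chr15:81802421-81826863) was at 48.6, 25.9 and 25.9 CPM with DMSO and at 83.4, 67.7 and 76.2 CPM with the combination. The combination values of the 3 lines were close to each other and all above the highest control. Within a line Tef changed by 0.78, 1.38 and 1.55. It narrowly missed the threshold in the unpaired edgeR fit (1.18 ± 0.38, adjusted p = 0.0646), passed with unpaired DESeq2 (adjusted p = 0.0178, where 20.6% of its genes passed) and with unpaired limma-voom (adjusted p = 0.0418, where 14.0% did), and rose with the block (1.26 ± 0.17, edgeR adjusted p = 1.83e-04). With the block the call held without each line in turn (adjusted p 2.62e-04 to 0.0119).

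Dbp (chr7:45705088-45710203), usually among the transcripts of highest amplitude in a running clock, was at 5.38, 3.68 and 1.93 CPM with DMSO and at 6.11, 10.3 and 5.05 CPM with the combination. The groups overlapped: A1471 with the combination was below A1005 with DMSO. A1005 changed by 0.18 and the other lines by 1.46 and 1.33. The log2 fold change was 0.97 ± 0.48 without the block (edgeR adjusted p = 0.214) and 1.02 ± 0.31 with it (adjusted p = 0.0168), and the latter call was lost without A1129 (adjusted p = 0.152) or without A1471 (adjusted p = 0.103). Dbp shares 539 of its 2993 exonic bases with Sphk2 on the opposite strand, which gave 0.22 (edgeR adjusted p = 0.721) without the block and 0.25 (adjusted p = 0.0940) with it.

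Bhlhe40 (chr6:108660629-108666925) was the only member whose lines changed by more than 0.5 in opposite directions. It was at 213, 69.2 and 82.0 CPM with DMSO and at 307, 39.5 and 26.9 CPM with the combination, so that A1005 changed by 0.52, A1129 by -0.80 and A1471 by -1.60. Neither fit called it, and the estimate changed sign between them (0.04 ± 1.03, edgeR adjusted p = 0.989, and -0.57 ± 0.35, adjusted p = 0.188, with the block). Without A1005, the line that changed in the other direction, it fell with the combination (-1.18, edgeR adjusted p = 0.0208 without the block and 0.00176 with it). That line was left out with its direction known, so the fall restates the values of the other lines and is not separate evidence.

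**Figure D2:**
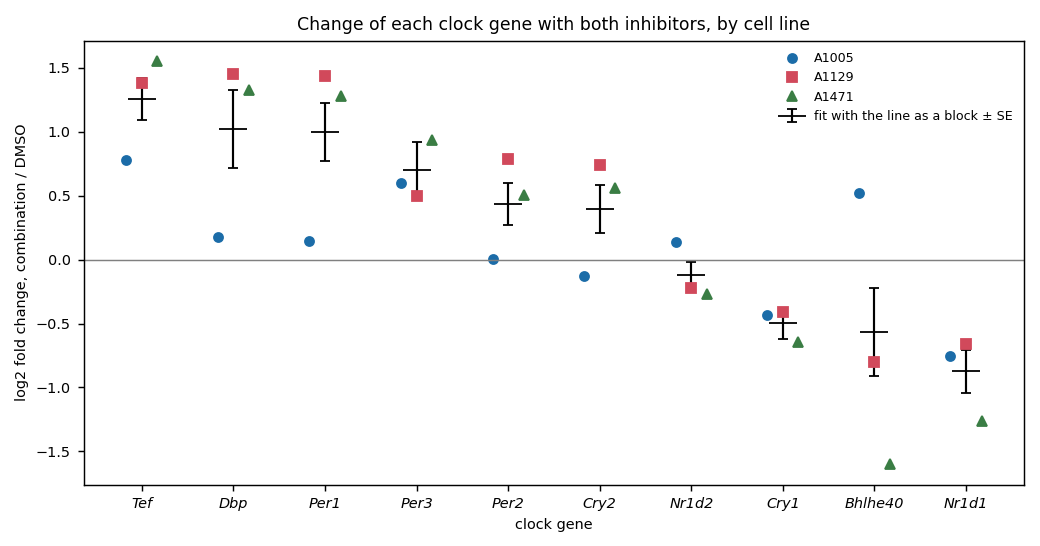
Log2 fold change of the combination over DMSO within each cell line (coloured markers, log2 CPM with a prior count of 2), with the estimate of the edgeR fit that takes the line as a block (black bar) ± its SE. The genes are ordered by that estimate, from Tef at 1.26 to Nr1d1 at -0.87. A1005 lay near 0 for Dbp, Per1 and Per2 and on the other side of 0 from the other lines for Bhlhe40.

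Counted over lines, 7 of the 10 members moved 1 way in all 3 lines, where 65.8% of all tested genes did. The DMSO and combination groups did not overlap for 4 members (Per1, Cry1, Nr1d1 and Tef), where 29.9% of all tested genes did not overlap.

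Against Crizotinib alone, which asks what FGFR inhibition added to Met inhibition, no member passed in the unpaired edgeR fit (13.2% of all tested genes passed). Per1 stood at the threshold, with a log2 fold change of 1.0 ± 0.29 and an adjusted p of 0.050, 4 members had an unadjusted p under 0.05, and DESeq2 called 3 members (Per1, Nr1d1 and Tef, adjusted p 0.0105, 0.0387 and 0.0381) where 20.0% of its tested genes passed, and limma-voom called 0 with 13.4% passing. With the block 7 members passed, again near the background of 53.4% (27.4% higher and 26.0% lower): Per1 (0.94), Per3 (0.70), Dbp (1.05) and Tef (1.12) rose, and Cry1 (-0.51), Nr1d1 (-0.93) and Nr1d2 (-0.37) fell. This comparison uses the same combination libraries as that against DMSO, so the calls are not independent. Nr1d2 was higher with Crizotinib than with the combination in every line (36.2, 91.0 and 43.7 against 32.0, 64.8 and 32.1 CPM). Without A1005, Per1 and Tef passed the unpaired fit (edgeR adjusted p = 0.0103 and 0.0114), among 3 members in all (13.5% of all genes tested there), and without A1129 (2.54%) or A1471 (0.777%) no member did. With the block 10 members passed without A1005 (48.2% of all genes), 4 without A1129 (41.9%) and 2 without A1471 (34.8%), the last being Nr1d1 and Tef. These counts were not tested against those shares.

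Against PD173074 alone, which asks what Met inhibition added to FGFR inhibition, no member passed in the unpaired fit (4.77% of all tested genes passed, 2 members had an unadjusted p under 0.05, and neither DESeq2 nor limma-voom called any, with 11.0% and 4.74% of genes passing). With the block 5 members passed where 39.8% of all tested genes did (19.6% higher and 20.2% lower): Per1 (0.67), Per3 (0.70), Dbp (0.91) and Tef (0.98) rose and Cry1 (-0.35) fell, with edgeR adjusted p of 0.0375, 0.0259, 0.0380, 0.00162 and 0.0389. Tef was at 63.1, 26.9 and 33.6 CPM with PD173074, below the combination in every line, and its call held without each line in turn (adjusted p 9.82e-04 to 0.0480). Those of Per1 and Dbp did not hold without A1129 or without A1471, that of Per3 was kept only without A1005, and that of Cry1 was lost without any 1 line.

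PD173074 alone changed no member past the threshold with or without the block, and the same held for Crizotinib alone. For PD173074 against DMSO, 0% of all tested genes passed the unpaired edgeR fit and 2.14% the fit with the block. An unadjusted p under 0.05 was seen in 0 members without the block and in 2 with it. DESeq2 and limma-voom called 0 members, with 0.213% and 0% of genes passing. The largest difference was in Nr1d1, at 23.2, 13.9 and 19.9 CPM with PD173074, which gave -0.56 ± 0.32 without the block (edgeR adjusted p = 0.99998) and -0.57 ± 0.17 with it (adjusted p = 0.123). Its highest PD173074 value, 23.18 CPM, lay just under its lowest DMSO value, 23.19 CPM, and it was the only member whose groups were separate (6.42% of all tested genes). The other unpaired estimates ran from -0.27 (Nr1d2) to 0.39 (Bhlhe40). That of Bhlhe40 has no stable direction: it was -0.048 with the block, -0.022 with limma-voom and -0.43 without A1005, and the lines changed by 0.78 (A1005), -0.28 (A1129) and -0.58 (A1471). For Crizotinib against DMSO 0% of all tested genes passed either edgeR fit, and the 10 estimates ran from -0.32 (Bhlhe40) to 0.25 (Nr1d2). At an unadjusted p under 0.05 there were 0 members without the block and 1 with it, and DESeq2 and limma-voom called 0 members, with 0.00356% and 0% of genes passing.

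Whether the combination departed from the sum of the 2 single effects was tested as an interaction on the log2 scale. No member passed in the unpaired fit, where 0.918% of all tested genes passed, 0 members had an unadjusted p under 0.05, and DESeq2 and limma-voom called none, with 3.46% and 0.976% of genes passing. With the block Tef was the only member called, at 0.84 ± 0.23 above the sum (edgeR adjusted p = 0.0369), where 16.2% of all tested genes passed. In the unpaired fit, whose estimates differ from those with the block, Tef differed from DMSO by 0.12 with Crizotinib alone, by 0.30 with PD173074 alone and by 1.18 with both. The call with the block was lost without A1129 (edgeR adjusted p = 0.226) or without A1471 (adjusted p = 0.242). Per1 was 0.61 ± 0.32 and Dbp 0.93 ± 0.44 above the sum in the fit with the block, without passing (edgeR adjusted p = 0.213 and 0.169).

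The effect of PD173074 was then compared between the lines, over its 2 contrasts (PD173074 against DMSO and the combination against Crizotinib), in an edgeR fit with a term for each line. This fit was added after the opposite directions of Bhlhe40 had been seen in the same libraries, so its p for Bhlhe40 is not independent evidence of them. Each line gave 1 library per treatment, so no line was replicated. The fit takes a line's libraries with and without Crizotinib as replicates once a shared Crizotinib effect is removed. By that measure 0.557% of all tested genes differed between lines, and of the members only Bhlhe40 did (edgeR adjusted p = 0.0314). Averaged over the contrasts, the log2 change of Bhlhe40 was 0.81 for A1005, -0.42 for A1129 and -0.89 for A1471. The line in which it was higher, A1005, is the line that held Ptprc and the higher summed immune markers given above, and their part in the result was not tested. Per1 differed in the other sense, with changes of 0.04, 1.0 and 0.81 in A1005, A1129 and A1471, but did not pass (adjusted p = 0.192). Dbp gave -0.01, 0.67 and 1.04 in the same order (adjusted p = 0.414).

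**Figure D3:**
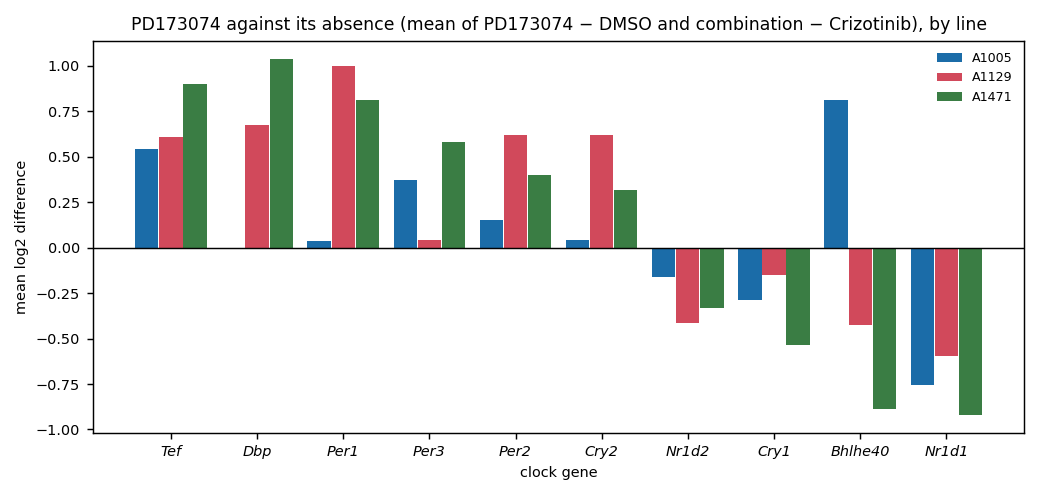
Mean log2 difference made by PD173074 in each cell line for the 10 clock genes, averaged over PD173074 against DMSO and the combination against Crizotinib. Each bar is the mean of 2 differences between single libraries of a line, so it has no replicate error, and colours mark the lines. Bhlhe40 was 0.81 in A1005 against -0.42 and -0.89 in A1129 and A1471. Dbp was just below 0 in A1005 and above it in the other lines. Every other member, Nr1d1 and Tef included, was on the same side of 0 in all 3 lines.

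After centring within each line, some pairs of members had similar or opposed patterns over the 12 libraries, which share their treatments and lines. Per1 and Dbp had a Pearson r of 0.909, Per1 and Tef 0.894, Per3 and Tef 0.901, and Per2 and Cry2 0.928. Cry1 and Nr1d1, the pair that fell with the block, had an r of 0.860 with each other and of -0.908 and -0.794 with Tef. Bhlhe40 was opposed to Per1 (-0.744) and Dbp (-0.708). Other pairs were weakly related, such as Nr1d2 and Bhlhe40 (0.174) or Per3 and Nr1d2 (-0.242). The share of all gene pairs with such an r was not computed, so these values are no result about the clock genes as a group. The genes outside the list most like Per1 were Iqsec1 (r = 0.993), Plxna2 (0.985) and Sptbn1 (0.983). Those most like Tef were Tmub2 (0.994), Ctdsp2 (0.993) and Cnppd1 (0.993). Nr1d1 was most like Spop (0.985), Maff (0.977) and Pi4k2b (0.971), and Cry1 most like Cpsf1 (0.990), Tnk2 (0.983) and Gm17491 (0.973). Dbp was most like Mapk3 (0.983), S100a1 (0.976) and Mgst3 (0.974), and Bhlhe40 was most like Stc2 (0.948), Ccdc6 (0.941) and Tspan4 (0.933). For Per2, Per3, Cry2 and Nr1d2 the closest genes were Fam53c (0.975), Fbh1 (0.973), Slc35c1 (0.976) and Castor2 (0.936). Each is the highest r among all tested genes with a mean log2 CPM of at least 1 and is given as a description.

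The rest of the clock pathway was followed in 48 further genes, of which 47 were tested (Arntl2 was not). With the combination 4 rose and 3 fell in the unpaired fit against DMSO, and 17 rose and 11 fell with the block. That is 7 of 47 against 14.4% of all tested genes, and 28 of 47 against 54.8%, again near the background. Without A1129 or A1471 the unpaired count was 2 or 1, and without A1471 the blocked count was 18. None of the 3 tested activators was called in either fit. Clock was at 72.0, 134 and 81.1 CPM with DMSO and at 69.6, 192 and 56.8 CPM with the combination (0.15, edgeR adjusted p = 0.883). Arntl, the obligate partner of Clock, was at 47.3, 29.2 and 20.4 CPM with DMSO and at 45.1, 28.8 and 15.4 CPM with the combination (-0.11, edgeR adjusted p = 0.916). Npas2, a paralog of Clock, was read in A1005 (3.48 to 4.89 CPM) and was at 0 in the other 8 libraries.

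Among the ROR receptors, which activate Arntl from the elements that REV-ERBs repress, Rorb rose with the block (1.26, edgeR adjusted p = 0.00905) but not without it (adjusted p = 0.222). Rora was at 27.7 to 35.9 CPM in A1005 and at most 1.49 CPM in the other lines. Of the 4 other repressors and PAR bZIP factors, Bhlhe41 (DEC2), the paralog of Bhlhe40, was at 16.3, 12.7 and 17.7 CPM with DMSO and at 69.3, 91.7 and 27.9 CPM with the combination. Bhlhe41 rose in both fits (2.02 ± 0.37, edgeR adjusted p = 0.00714, and 1.97 with the block), in all 3 lines, including the pair in which Bhlhe40 was lower. Hlf, the third PAR bZIP factor, was at 4.45, 1.31 and 0.276 CPM with DMSO and at 14.9, 9.14 and 0.904 CPM with the combination, and rose with the block (2.13, edgeR adjusted p = 1.07e-04) but not without it (adjusted p = 0.353). Nfil3, the repressor that opposes the PAR bZIP factors at D-boxes, rose with the block by 0.25 (edgeR adjusted p = 0.0206), and Ciart was not called.

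Of the 24 clock protein kinases, ligases, phosphatases and cofactors, 1 rose and 2 fell in the unpaired fit, and 6 rose and 8 fell with the block. Over all tested genes 6.1% were called higher and 8.28% lower without the block, and 28.6% and 26.2% with it. The counts are near that background and are no result about this list. Timeless, which in mammals is best known for its part at the replication fork, fell in all lines, from 46.0, 37.1 and 43.7 CPM with DMSO to 19.8, 14.6 and 16.0 CPM (-1.33 ± 0.17, edgeR adjusted p = 0.00115). Wdr5, a subunit of histone methyltransferase complexes, fell by 0.83 (edgeR adjusted p = 0.0233), and Crebbp, a histone acetyltransferase, rose by 0.59 (adjusted p = 0.0288). The casein kinases Csnk1d, Csnk1e and Csnk1a1, which phosphorylate PER proteins, were not called in either fit.

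Of 8 output genes rhythmic in many tissues, 1 rose and 1 fell without the block, and 3 rose and 3 fell with it. Tsc22d3 (GILZ) was at 93.4, 56.1 and 76.5 CPM with DMSO and at 283, 431 and 348 CPM with the combination (2.23 ± 0.31, edgeR adjusted p = 0.00189). Noct, a deadenylase-like phosphatase of rhythmic expression, fell by 1.52 (edgeR adjusted p = 0.00776). A list of 7 glucocorticoid-responsive genes shares Tsc22d3 and Klf9 with the output list. Hydrocortisone was in the medium of all groups, and its part in these values was not tested. Of these 2 rose without the block (Tsc22d3 and Zbtb16, the latter by 1.91, edgeR adjusted p = 0.00518) and 5 with it, where 6.1% of all tested genes were called higher and 8.28% lower without the block and 28.6% and 26.2% with it. This list and that of the 8 output genes are too short for their counts to be read as a result. With the block Dusp1 (1.94), Fkbp5 (0.57) and Klf9 (0.93) rose as well, while Sgk1 (-0.05) and the receptor gene Nr3c1 (-0.08) were not called.

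**Figure D4:**
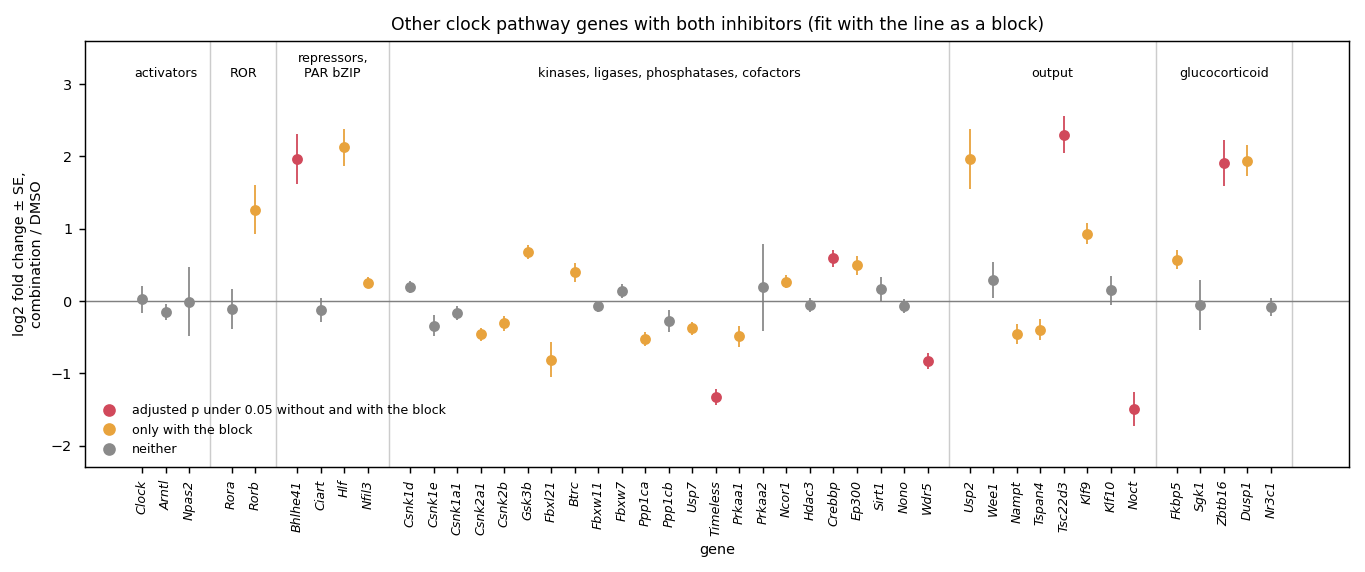
Log2 fold change of the combination over DMSO, from the edgeR fit with the line as a block, ± SE, for 45 of the 47 tested clock pathway genes outside the 10, grouped by role. Red points passed an adjusted p of 0.05 without and with the block, orange points with the block only, and grey points in neither. The activators Clock, Arntl and Npas2 lay near 0, Bhlhe41 and Tsc22d3 near 2, and Timeless at -1.33.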

How the data were processed

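RNA was sequenced from 12 tumoursphere libraries (3 lines, 4 treatments, 24 h). The authors deposited a table of raw counts per Ensembl gene (integers), made with bcl2fastq, STAR and HTSeq on mm10 per the submitters' processing notes and a NextSeq500 instrument. Tool versions, the annotation release and the strand setting are not given in the sources used here. Genes that overlap another gene on the other strand are therefore uncertain.

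The 10 clock genes, the pathway lists and the markers were chosen with earlier results of these data known. The genes named are these, Met, Fgfr1 and Trp53, the opposite-strand neighbours Thra and Sphk2 (added after their values were seen), and for each member the 3 tested genes with the highest r of line-centred log2 CPM. Met, Fgfr1 and Trp53 check no label, since no library lacked the genotype.

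The filter on low counts was filterByExpr (a count of 10, a total of 15). TMM factors and quasi-likelihood F tests came from edgeR 4.0.16 (R 4.3.3), with treatment as the only term over 12 libraries, as the study's methods state an unpaired analysis. P-values were Benjamini-Hochberg adjusted over 13836 genes and called at 0.05. Libraries are paired because they share a line, which the labels name: deviations from the treatment means correlated at 0.766 to 0.962 between libraries of the same line (18 pairs) and at -0.663 to -0.0472 between lines (36 pairs). The deviations of the 3 libraries of a treatment cancel, so the negative values between lines follow from the positive ones and add nothing to them. Each line gave 1 library per treatment, so the p-values of the unpaired fit measure the spread between these lines, their levels included. Those of the fit with the block measure how far the lines differ in their changes between treatments. In the line by PD173074 fit the error comes from a line's libraries with and without Crizotinib, taken as replicates. Alternatives were a block for the line, the tools DESeq2 1.42.0 and limma-voom (limma 3.58.1), other scalings and filters, fits restricted to the groups compared, a minimum change of 1.5 on the log2 scale and leaving out each line. Combinations of the block with DESeq2, limma-voom or a line left out, and the line by PD173074 fit, were added after the values were seen. TPM used GENCODE exon lengths, which matched 13834 of the 13836 tested genes. TMM-normalized CPM used whole library totals, and log2 changes within a line used a prior count of 2. The sources used here name no molecular identifiers, so reads may not be independent molecules. The tests were checked on simulated counts in which 200 genes changed by 2 on the log2 scale, up or down, with the combination. Each of them changed equally in all 3 lines, no other gene changed, and the noise followed the spread estimated with the block. The unpaired edgeR fit called 113 of them with 0 false calls, and the fit with the block 184 with 11. Unpaired DESeq2 called 150 with 4 false calls, and unpaired limma-voom 109 with 0. A gene that did not pass the unpaired fit may therefore still have changed. The members changed unequally between lines and by less than 2, so these counts of recovered and false calls do not carry over to them. Other software was Python 3.11.15, matplotlib 3.10.9, numpy 2.4.6 and pandas 2.3.3. A few listed genes are not reported here.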

Additional observations from a re-analysis of the deposited data

Results flagged for a closer look

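Bhlhe40 differed between the cell lines in its response to PD173074 (edgeR interaction adjusted p = 0.0314), with a mean log2 difference of 0.81 for A1005, -0.42 for A1129 and -0.89 for A1471. This fit was run because the opposite directions of Bhlhe40 had been seen in the same libraries, so its p restates that observation and is not independent evidence of it. No line was replicated, and the fit takes a line's libraries with and without Crizotinib as replicates. The same test picked out Sgk1, a glucocorticoid-responsive kinase gene from the pathway list (adjusted p = 0.0207), in the opposite order of lines: -0.78, 0.03 and 1.03 for A1005, A1129 and A1471. Sgk1 was at 192, 219 and 79.1 CPM in A1005, A1129 and A1471 with DMSO, at 147, 254 and 156 CPM with PD173074, at 212, 210 and 72.8 CPM with Crizotinib, and at 93.3, 189 and 154 CPM with both. Its combination and DMSO groups overlapped, and no call was made on it in the comparison of the treatments. Both genes are among the 0.557% of all tested genes whose response differed between lines.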

How the results depend on the processing

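With the line as a replicate block, the members called rose from 1 to 7 for the combination against DMSO, from 0 to 7 against Crizotinib, from 0 to 5 against PD173074 and from 0 to 1 for the departure from additivity, and the other pathway genes called rose from 7 to 28. The share of all tested genes called rose too, from 14.4% to 54.8%, 13.2% to 53.4%, 4.77% to 39.8% and 0.918% to 16.2%. The rise is therefore no result about the members or the pathway genes. With the block, DESeq2 called 6, 7, 4 and 1 members and 27 pathway genes in the same order of comparisons. The counts for limma-voom with the block were 6, 7, 5, 1 and 28. Leaving out each line gave 0 to 3, 0 to 3, 0 to 2 and 0 to 0 members and 1 to 7 pathway genes without the block, and 2 to 8, 2 to 10, 1 to 5 and 0 to 2 members and 18 to 25 pathway genes with it (19 without A1129). For the combination against DMSO these fits called 0.856% to 14.9% of all genes without the block and 36.8% to 50.3% with it. Against Crizotinib they called 0.777% to 13.5% and 34.8% to 48.2%. For the combination against DMSO, unpaired DESeq2 and a minimum of 10 counts in every library each called 2 members, and no filter, only the libraries of the groups compared, or a minimum log2 change of 1.5 each called 0. The last pair of settings left 4 pathway genes each. Against Crizotinib, unpaired DESeq2 called 3 members, and DESeq2 size factors, total counts alone and at least 10 counts in every library each called 1 (Per1). Unpaired DESeq2 called 20.6% of its genes for the combination against DMSO and 20.0% against Crizotinib. Where no share is given here, it was not computed for that setting, and the count is a description only. PD173074 or Crizotinib against DMSO gave 0 members in every alternative run. The Per1 call for the combination against DMSO was lost with limma-voom (adjusted p = 0.0663), no filter (0.0654) and only the groups compared (0.132).

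Bhlhe40 reversed its sign. For the combination against DMSO it went from 0.04 to -0.57 with the block, -0.60 with limma-voom, -1.18 without A1005 with or without the block, -0.44 and -0.094 with the block without A1129 and A1471 (without the block the range was -1.18 to 0.29), -0.56 with DESeq2 and the block, and -0.57 with limma-voom and the block. For PD173074 against DMSO it went from 0.39 to -0.048 with the block, -0.022 with limma-voom, -0.43 without A1005 with or without the block (-0.43 to 0.60 over the lines left out), -0.057 with DESeq2 and the block, and -0.011 with limma-voom and the block. Unpaired DESeq2 gave it no adjusted p. The block removes the difference in level between lines, and leaving out A1005 removes the line that differed in direction. There were 397 member values under the alternatives. Of these, 277 kept their direction and side of the threshold, 99 newly passed it, 7 no longer did and 14 reversed. Every member was entered only for the combination against DMSO, where these counts were 113, 31, 7 and 8. Against Crizotinib and against PD173074, only members called with the block were entered. A member entered that way must newly pass under the block, so the 99 does not measure how often members gain a call. By CPM in place of TPM, 7 members changed rank in level. Only the libraries of the groups compared was not run for the departure from additivity, which needs all groups.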
